A study of Homo sapiens with 8 samples.

Results

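The *YAP1* and TEAD pathway was examined through 10 named genes, which hold the coactivators *YAP1* and *WWTR1*, the DNA-binding factors *TEAD1* and *TEAD4*, the kinase *LATS2*, the angiomotin-like scaffolds *AMOTL1* and *AMOTL2*, and the target genes *CCN1*, *CCN2* and *ANKRD1*. The genes were taken by symbol, or by Entrez identifier for *CCN1* (older name *CYR61*) and *CCN2* (older name *CTGF*), and 9 of the 10 had a row among the 13842 genes of the deposited table. *ANKRD1* had no row and its expression was not analysed here. The libraries came from MCF10A, a line of normal breast epithelium, and from DCIS.COM, which belongs to the same MCF10 series and models ductal carcinoma in situ. Each line was stably transduced with the lentiviral vector pLOC-empty or with pLOC-*MALINC1*, which carries the long non-coding RNA *MALINC1*, and all 4 groups of 2 libraries were selected with blasticidin. MCF10A was grown in DMEM/F-12 with 5% horse serum, epidermal growth factor, hydrocortisone, insulin and cholera toxin, whereas DCIS.COM was kept in DMEM/F-12 with 5% horse serum, so that line and medium cannot be told apart. The labels number the replicates without saying whether they came from separate transductions or cultures, and the p-values therefore measure the spread between these libraries, which may be technical.

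In the Hippo pathway, a chain of kinases that ends in LATS1 and LATS2 phosphorylates the coactivators YAP (*YAP1*) and TAZ (*WWTR1*), which keeps them in the cytoplasm or leads to their degradation. When the kinases are less active, for example in cells at low density or on a stiff matrix, YAP and TAZ enter the nucleus and bind TEAD factors on DNA, where they drive genes such as *CCN1*, *CCN2* and *ANKRD1*. Angiomotin proteins bind YAP at cell junctions, and *LATS2* and *AMOTL2* are themselves known targets of YAP. Since this control acts on the proteins, the mRNA levels of the coactivators and kinases give no measure of the activity of the pathway. RNA was taken from subconfluent plates in every group.

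The promoters below are shown because they hold the DNA word that TEAD factors recognise. RefSeq windows from 250 bases before to 50 bases after the start of a gene (GRCh38.p14) were given for 7 of the 10 genes, with 9 windows in all, and were searched for the TEAD word GGAATG on both strands (CATTCC on the other). The word was found in 5 of the 7 genes, *CCN2*, *ANKRD1*, *AMOTL2*, *LATS2* and *YAP1*, against 16.7% of 27305 genes and 14.0% of 35116 windows over the whole RefSeq set. All of these but *YAP1* were named above as known targets, so that this share is a description and not a test. Sequences run 5′ to 3′ on the strand of the gene, with the word in capitals.
*CCN2* (chr6:131951323-131951622, minus strand): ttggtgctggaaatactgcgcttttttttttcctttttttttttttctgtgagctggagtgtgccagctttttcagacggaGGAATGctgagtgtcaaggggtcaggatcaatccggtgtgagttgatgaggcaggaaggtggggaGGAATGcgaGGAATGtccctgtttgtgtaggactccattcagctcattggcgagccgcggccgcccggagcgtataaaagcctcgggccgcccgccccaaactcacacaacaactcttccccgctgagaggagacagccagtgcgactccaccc
*AMOTL2* (chr3:134374398-134374697, minus strand): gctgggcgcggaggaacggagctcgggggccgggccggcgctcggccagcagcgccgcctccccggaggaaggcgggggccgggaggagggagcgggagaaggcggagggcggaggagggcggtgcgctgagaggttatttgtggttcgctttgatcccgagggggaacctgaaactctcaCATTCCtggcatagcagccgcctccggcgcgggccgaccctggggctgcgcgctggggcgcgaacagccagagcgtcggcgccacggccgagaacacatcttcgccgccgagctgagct
*LATS2* (chr13:21061537-21061836, minus strand): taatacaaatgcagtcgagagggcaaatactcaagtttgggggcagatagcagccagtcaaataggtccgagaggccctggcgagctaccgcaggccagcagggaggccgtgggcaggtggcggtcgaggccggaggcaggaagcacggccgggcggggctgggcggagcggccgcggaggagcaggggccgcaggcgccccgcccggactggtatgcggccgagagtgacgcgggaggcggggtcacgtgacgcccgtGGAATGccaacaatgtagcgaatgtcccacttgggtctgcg
*YAP1* (chr11:102110197-102110496, plus strand): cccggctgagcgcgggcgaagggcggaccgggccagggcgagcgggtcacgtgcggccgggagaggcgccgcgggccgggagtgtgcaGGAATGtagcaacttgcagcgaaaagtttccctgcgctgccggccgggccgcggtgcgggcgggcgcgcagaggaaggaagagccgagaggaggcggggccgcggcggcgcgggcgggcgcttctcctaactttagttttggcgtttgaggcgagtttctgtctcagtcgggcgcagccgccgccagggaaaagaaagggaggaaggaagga

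*CCN2* held 3 copies, which began at -169, -104 and -95 counted from the start base as 0, and the last pair lay close together. In *AMOTL2* the word stood on the opposite strand, at -69, and a second window of the gene held none. *LATS2* held 1 copy at 9, just inside the transcript, and *YAP1* held 1 copy at -162. *ANKRD1* held 2 copies, at -220 and -128, and was the only one of the 7 genes with the AP-1 word TGANTCA, at -195. That word stood in 9.37% of all genes and 7.71% of all windows. The windows of *AMOTL1* and *WWTR1* held neither word, which says only that these letters are not in these stretches, and a match is a description and not a bound site.

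In GRCh37 (hg19), the build of the read counting, the 9 measured genes are annotated by GENCODE as protein-coding. *YAP1* lies at chr11:101981178-102104155 on the plus strand and *WWTR1* at chr3:149235022-149454501 on the minus strand. *TEAD1* lies at chr11:12695968-12966284 and *TEAD4* at chr12:3068496-3149842, both on the plus strand. *LATS2* lies at chr13:21547175-21635725 on the minus strand, *AMOTL1* at chr11:94439597-94609913 on the plus strand and *AMOTL2* at chr3:134074189-134094321 on the minus strand. The target genes are short, with *CCN1* at chr1:86046444-86050272 on the plus strand and *CCN2* at chr6:132269316-132272512 on the minus strand. The strand setting of the counting is not given in the sources used here. Reads from an opposite-strand gene could therefore not be told apart in 9.05% of the exon bases of *WWTR1* (*WWTR1-AS1*), 11.9% of those of *CCN2* (*LINC01013*), and 9.95% and 4.95% of those of *YAP1* and *AMOTL1* (genes without a symbol).

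Libraries held 20604377 to 37550457 reads on genes. *MALINC1* itself had 1.0 to 1.51 CPM (reads scaled to the normalised library size) with pLOC-empty in both lines, 11.7 to 13.2 CPM with pLOC-*MALINC1* in MCF10A and 19.2 to 24.5 CPM in DCIS.COM. All 6 basal markers and all 4 luminal or general epithelial markers searched had a row. With pLOC-empty, *KRT8* had means of 813 CPM in MCF10A and 1852 in DCIS.COM, *KRT18* 505 and 1587, and *EPCAM* 62.2 and 280. *CDH1* went the other way, with 631 and 215 CPM. *TP63*, which encodes the p63 factor of basal cells, stood at only 4.60 to 5.24 CPM in MCF10A with pLOC-empty. It had 40.1 to 41.7 CPM with pLOC-*MALINC1* and 49.1 to 57.4 CPM in the DCIS.COM libraries. Between the lines with pLOC-empty, the other basal markers went the other way and were higher in MCF10A than in DCIS.COM. Their means in these groups were 6149 and 1069 CPM for *KRT5*, 1452 and 33.0 for *KRT14*, and 9985 and 970 for *KRT17*. *CDH3* had 398 and 212 CPM and *LAMB3* 1616 and 656 CPM. Like *TP63*, each of them was higher in MCF10A with pLOC-*MALINC1* than with pLOC-empty. The means there were 8727 CPM for *KRT5*, 2922 for *KRT14*, 12422 for *KRT17*, 534 for *CDH3* and 1866 for *LAMB3*. In DCIS.COM with pLOC-*MALINC1* they were 1388, 21.9, 807, 209 and 355 CPM in the same order. Of the markers of other cell types, 1 of 4 for fibroblasts, 1 of 3 for leukocytes and 1 of 3 for endothelium had a row. These were *COL1A1*, at 15.1 to 15.9 CPM in MCF10A with pLOC-empty, 6.61 to 7.38 with pLOC-*MALINC1* and 1.51 to 2.01 in DCIS.COM, *CD68*, at 3.53 to 11.4 CPM, and *PECAM1*, at 6.06 to 7.21 CPM in DCIS.COM with pLOC-empty and 1.03 or less elsewhere. Their part in the results was not tested.

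In MCF10A, *WWTR1* nearly doubled with *MALINC1*, *TEAD4* rose by less, and *YAP1* and *AMOTL2* rose slightly, whereas the target genes *CCN1* and *CCN2* did not pass the test. In DCIS.COM, *WWTR1*, *TEAD4* and *AMOTL1* rose and *YAP1*, *AMOTL2* and *CCN1* fell. A gene is said to rise or fall where its Benjamini-Hochberg adjusted p in limma was below 0.01, and to be a DEG where it also changed over 2-fold. No measured member was a DEG in MCF10A (0 of 9, and 0 with limma-voom on recovered reads), where 5.50% of all genes were. There, 7 of 9 members had an unadjusted limma p below 0.05, beside 8096 of 13842 genes. In DCIS.COM, 1 of 9 was a DEG, *CCN1*, which was lower, where 4.53% of all genes were (3.08% lower, 1.44% higher). At any fold change, 4 of 9 members passed in MCF10A, all of them higher, beside 39.6% of all genes (21.5% higher, 18.1% lower). In DCIS.COM, 6 of 9 passed, with 3 higher and 3 lower, beside 33.2% of all genes (16.4% higher, 16.7% lower). The median log2 fold change of the 9 genes was 0.015 in MCF10A and -0.22 in DCIS.COM, beside medians of 0 and 0.0089 over all genes. In these bulk libraries, fewer cells expressing a gene and less RNA of it per cell cannot be told apart.

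**Figure D1:**
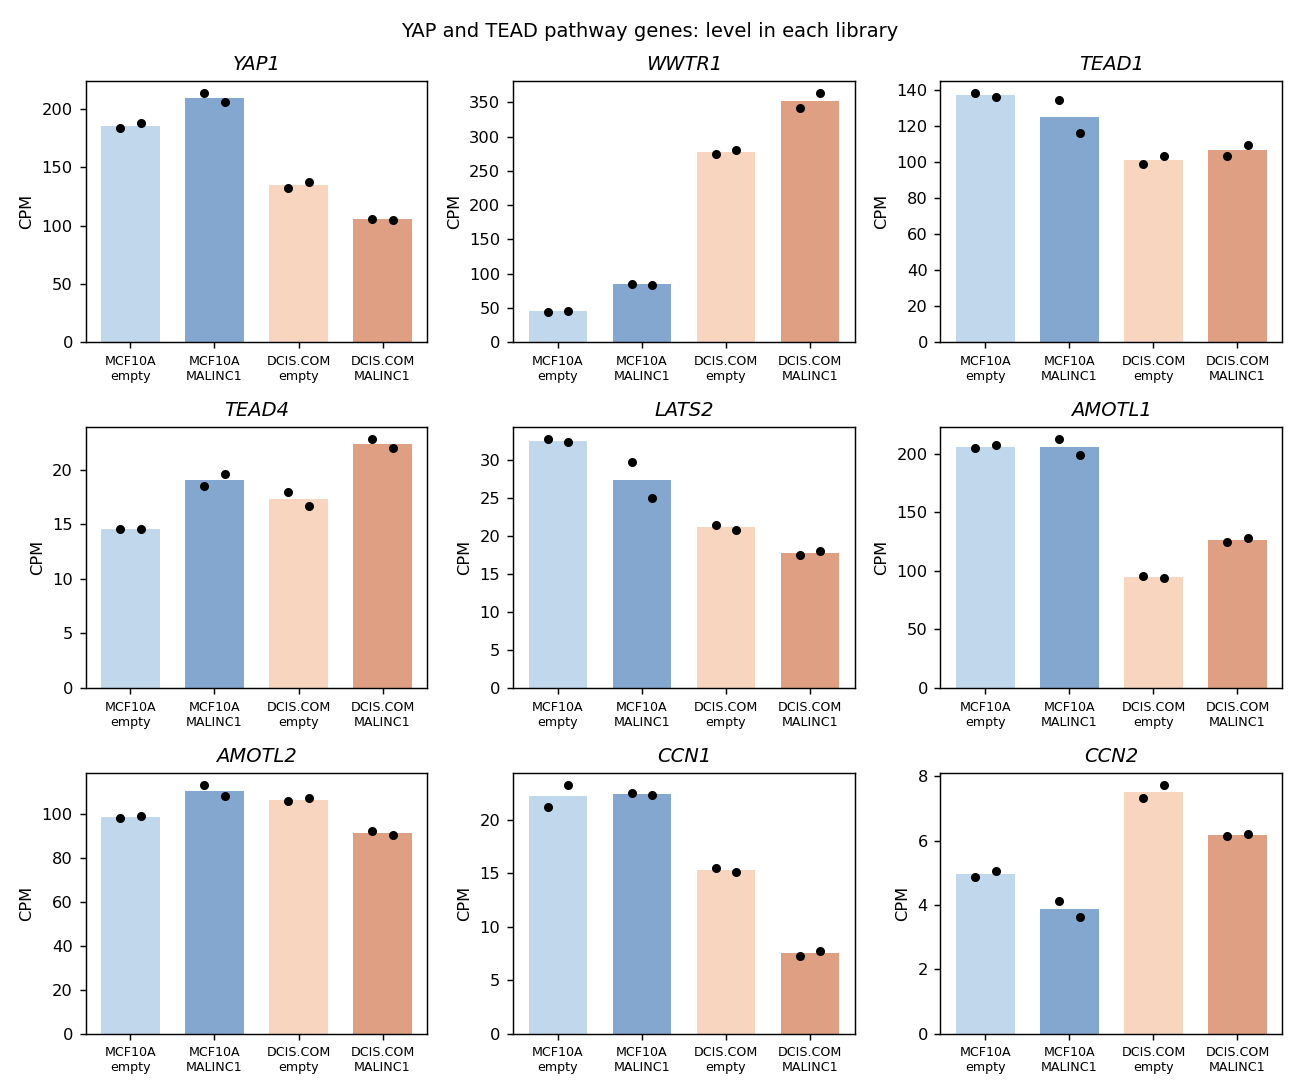
Level of the 9 measured genes in CPM (vertical axes, each from 0) in the 4 groups, with a bar for the mean and a point for each of the 2 libraries. *WWTR1* climbs from 44.8 CPM in MCF10A with pLOC-empty to 353 CPM in DCIS.COM with pLOC-*MALINC1*, while *CCN1* drops to 7.51 CPM in that last group.

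*YAP1*, the first coactivator, had 184 and 188 CPM in MCF10A with pLOC-empty and 214 and 206 CPM with pLOC-*MALINC1*. In DCIS.COM it had 132 and 138 CPM with pLOC-empty and 106 and 105 CPM with pLOC-*MALINC1*. The order of the group means from the highest was MCF10A with pLOC-*MALINC1*, MCF10A with pLOC-empty, DCIS.COM with pLOC-empty and DCIS.COM with pLOC-*MALINC1*. The log2 fold change with *MALINC1* was 0.17 (standard error, SE, 0.035, limma adjusted p = 0.00113) in MCF10A and -0.36 (SE 0.035, adjusted p = 4.78e-06) in DCIS.COM. The MCF10A value missed the threshold in limma without the trend (adjusted p = 0.0201) and with each line fitted alone (adjusted p = 0.0124). The small rise in MCF10A was 0.15 to 0.20 with any library left out, but its adjusted p was 0.0146 without pLOC-empty replicate 1 and 0.0147 without pLOC-*MALINC1* replicate 1.

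*WWTR1*, which encodes TAZ, had 43.5 and 46.2 CPM in MCF10A with pLOC-empty and 85.5 and 83.0 CPM with pLOC-*MALINC1*. It had 275 and 281 CPM in DCIS.COM with pLOC-empty and 342 and 363 CPM with pLOC-*MALINC1*. The lines stood in the reverse order compared with *YAP1*. The log2 fold change was 0.91 (SE 0.041, adjusted p = 4.70e-09) in MCF10A, a 1.88-fold rise, and 0.34 (SE 0.041, adjusted p = 2.60e-05) in DCIS.COM. With each line fitted alone, *WWTR1* was the only member that passed in MCF10A.

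Of the DNA-binding partners, *TEAD1* had 138 and 136 CPM with pLOC-empty and 134 and 116 CPM with pLOC-*MALINC1* in MCF10A. In DCIS.COM it had 98.9 and 103 CPM with pLOC-empty and 103 and 109.5 CPM with pLOC-*MALINC1*. Neither change passed, with log2 fold changes of -0.13 (adjusted p = 0.0714, 95% interval -0.26 to -0.01) and 0.08 (adjusted p = 0.317, 95% interval -0.05 to 0.20). The MCF10A replicates with *MALINC1* lay apart from each other, and without pLOC-*MALINC1* replicate 1 of MCF10A the value there was -0.24 (adjusted p = 0.00263).

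*TEAD4* had 14.6 and 14.6 CPM with pLOC-empty and 18.5 and 19.6 CPM with pLOC-*MALINC1* in MCF10A. It had 18.0 and 16.7 CPM with pLOC-empty and 22.8 and 22.0 CPM with pLOC-*MALINC1* in DCIS.COM. The log2 fold change was 0.39 (SE 0.069, adjusted p = 0.000532) in MCF10A and 0.37 (SE 0.069, adjusted p = 0.000857) in DCIS.COM. Neither passed with each line fitted alone (limma adjusted p = 0.0111 for MCF10A and 0.0136 for DCIS.COM). In DCIS.COM the adjusted p was 0.0111 without pLOC-empty replicate 2 and 0.0122 without pLOC-*MALINC1* replicate 1.

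*LATS2*, the kinase that restrains both coactivators, had 32.7 and 32.3 CPM in MCF10A with pLOC-empty and 29.7 and 25.0 CPM with pLOC-*MALINC1*. In DCIS.COM it had 21.5 and 20.8 CPM with pLOC-empty and 17.5 and 18.0 CPM with pLOC-*MALINC1*. The log2 fold changes of -0.25 in each line did not pass (adjusted p = 0.0136 for MCF10A and 0.0167 for DCIS.COM). In MCF10A the value passed under 4 of 11 other ways of processing, both larger pseudocounts, quantile normalization and limma-voom, at -0.28 to -0.24 (lowest adjusted p = 0.00621), and it was -0.38 (adjusted p = 0.00180) without pLOC-*MALINC1* replicate 1. The adjusted p of the DCIS.COM contrast was 0.00547 and 0.00515 without the first or the second MCF10A pLOC-*MALINC1* library, which enter it only through the shared estimate of the spread.

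*AMOTL1*, a scaffold of cell junctions, had 205 and 208 CPM in MCF10A with pLOC-empty and 212 and 199 CPM with pLOC-*MALINC1*. In DCIS.COM it had 95.5 and 93.5 CPM with pLOC-empty and 124 and 128 CPM with pLOC-*MALINC1*. The MCF10A groups overlapped, with a log2 fold change of -0.0055 (adjusted p = 0.922, 95% interval -0.09 to 0.08), whereas in DCIS.COM the gene rose by 0.42 (SE 0.038, adjusted p = 2.65e-06).

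*AMOTL2*, its relative and a known target of YAP, had 98.2 and 98.9 CPM in MCF10A with pLOC-empty and 113 and 108 CPM with pLOC-*MALINC1*. It had 106 and 107 CPM in DCIS.COM with pLOC-empty and 92.0 and 90.2 CPM with pLOC-*MALINC1*. The gene was thus higher with *MALINC1* in MCF10A, by a log2 value of 0.16 (SE 0.036, adjusted p = 0.00214), and lower in DCIS.COM, with -0.22 (SE 0.036, adjusted p = 0.000289). The former value stayed at 0.13 to 0.20 with any library left out, with an adjusted p of 0.0179, 0.0136 and 0.0252 without pLOC-empty replicate 1, pLOC-empty replicate 2 and pLOC-*MALINC1* replicate 1 of MCF10A. It also missed the threshold under 4 of 11 other ways of processing, quantile normalization, total-count scaling, limma without the trend and each line fitted alone, at 0.13 to 0.16 (highest adjusted p = 0.0218). The latter was -0.11 (adjusted p = 0.0585) with scaling by total counts, under which the median of all genes in DCIS.COM moved by 0.116.

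*CCN1*, a secreted matrix protein that binds integrins, had 21.2 and 23.2 CPM in MCF10A with pLOC-empty and 22.5 and 22.3 CPM with pLOC-*MALINC1*. In DCIS.COM it had 15.5 and 15.1 CPM with pLOC-empty and 7.28 and 7.74 CPM with pLOC-*MALINC1*, on 250 to 332 reads a library. The MCF10A groups overlapped (log2 fold change 0.02, adjusted p = 0.887, 95% interval -0.15 to 0.18). The fall in DCIS.COM was -1.02 (SE 0.075, adjusted p = 4.18e-07), 2.03-fold, which is just past the fold threshold. It was -0.9995 without pLOC-empty replicate 1, -0.97 without pLOC-*MALINC1* replicate 1 and -0.90 with total counts (adjusted p = 3.40e-05, 2.15e-05 and 1.46e-06), all under 2-fold.

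*CCN2*, the related connective tissue growth factor, was the lowest of the measured genes in CPM, at 4.86 and 5.05 in MCF10A with pLOC-empty and 4.12 and 3.63 with pLOC-*MALINC1*. In DCIS.COM it had 7.32 and 7.73 CPM with pLOC-empty and 6.15 and 6.21 CPM with pLOC-*MALINC1*. Its libraries held 96 to 211 reads of the gene. The log2 fold changes of -0.35 (SE 0.12, adjusted p = 0.0245) in MCF10A and -0.28 (SE 0.12, adjusted p = 0.0689) in DCIS.COM did not pass. The 95% intervals were -0.61 to -0.09 in MCF10A and -0.54 to -0.03 in DCIS.COM, both below 0. In MCF10A the value passed in limma without the trend (adjusted p = 0.00982).

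**Figure D2:**
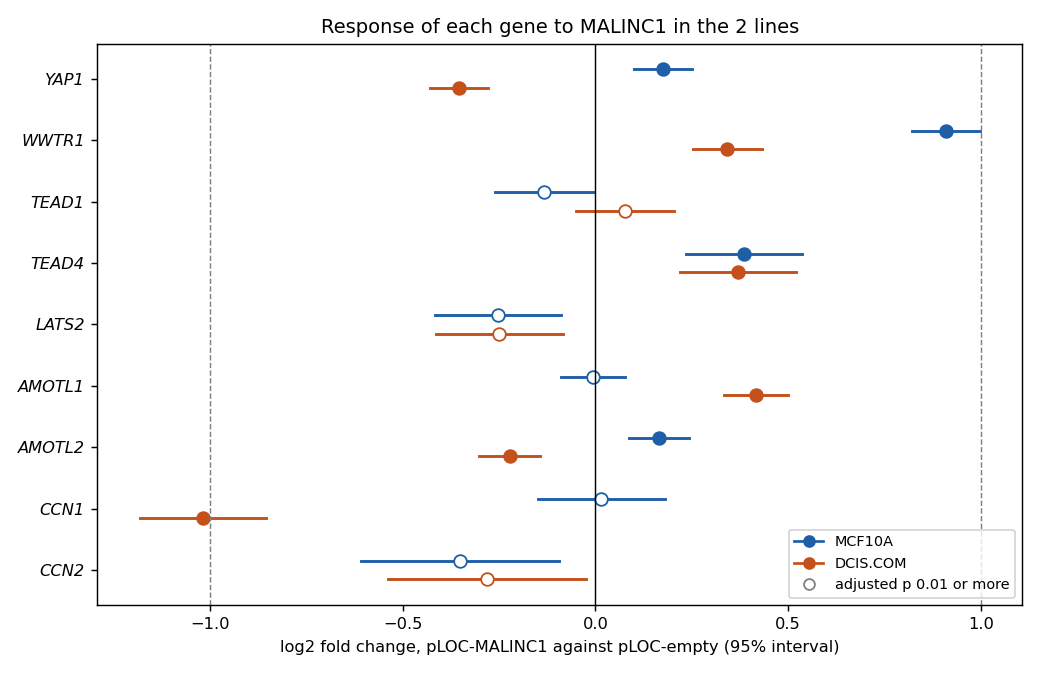
Log2 fold change of pLOC-*MALINC1* against pLOC-empty (horizontal axis) for each gene (vertical axis) in MCF10A (blue) and DCIS.COM (orange), with 95% intervals from limma over 8 libraries, filled points at an adjusted p below 0.01 and dashed lines at a 2-fold change. The points of *YAP1* and *AMOTL2* lie on opposite sides of 0, and the lowest point is *CCN1* in DCIS.COM at -1.02.

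The responses of the lines were then compared directly, as the DCIS.COM response minus the MCF10A response on the log2 scale. Of the measured genes, 5 differed in this test, and 1 of them, *CCN1*, by over 2-fold (1 of 9, lower in DCIS.COM, where 9.20% of all genes differed so, 5.22% lower and 3.98% higher). At any fold change 5 of 9 members passed, with 1 higher and 4 lower in DCIS.COM, beside 35.9% of all genes (15.6% higher, 20.3% lower). The difference was -1.03 (SE 0.11, adjusted p = 6.88e-06) for *CCN1*, -0.57 (SE 0.058, adjusted p = 6.18e-06) for *WWTR1* and -0.53 (SE 0.049, adjusted p = 2.76e-06) for *YAP1*. It was -0.39 (SE 0.051, adjusted p = 5.16e-05) for *AMOTL2* and 0.42 (SE 0.054, adjusted p = 4.11e-05) for *AMOTL1*. *WWTR1* rose in both lines and rose more in MCF10A, while *YAP1* and *AMOTL2* rose in MCF10A and fell in DCIS.COM. The 2-fold call of *CCN1* was lost without MCF10A pLOC-empty replicate 1 (-0.97) and without DCIS.COM pLOC-*MALINC1* replicate 1 (-0.99).

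No difference between the lines was detected for *TEAD4* (-0.02, adjusted p = 0.908, 95% interval -0.23 to 0.20), *LATS2* (0.0034, adjusted p = 0.983, 95% interval -0.23 to 0.24) and *CCN2* (0.07, adjusted p = 0.753, 95% interval -0.29 to 0.43). *TEAD1* differed by 0.21 (adjusted p = 0.0519), and by 0.32 (adjusted p = 0.00235) without MCF10A pLOC-*MALINC1* replicate 1.

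With the control vector pLOC-empty, the lines differed most in *WWTR1*, which was 6.20-fold higher in DCIS.COM than in MCF10A, and in *AMOTL1*, which was 2.18-fold lower. This comparison uses the same pLOC-empty libraries as those above. *WWTR1* (higher) and *AMOTL1* (lower) were the 2 DEGs of the 9 members, beside 28.6% of all genes (15.6% higher, 13.0% lower). At any fold change 8 of 9 members passed, with 3 higher and 5 lower in DCIS.COM, beside 73.9% of all genes (37.9% higher, 36.0% lower). The median log2 difference of the members was -0.44, beside 0.031 over all genes. The log2 difference was 2.63 (SE 0.041, adjusted p = 2.75e-14) for *WWTR1* and -1.12 (SE 0.038, adjusted p = 2.49e-11) for *AMOTL1*. *LATS2* (-0.62), *CCN1* (-0.54), *YAP1* (-0.46) and *TEAD1* (-0.44) were also lower in DCIS.COM, with adjusted p values of 6.35e-06, 2.55e-05, 5.61e-08 and 1.50e-05. *CCN2* was higher (0.60, SE 0.12, adjusted p = 0.000463), so that the target genes *CCN1* and *CCN2* differed between the lines in opposite directions. *TEAD4* was higher by 0.25 (adjusted p = 0.00523), which became 0.0250, 0.0224 and 0.0440 without the first or second MCF10A or the first DCIS.COM pLOC-empty library. *AMOTL2* differed by 0.11 (adjusted p = 0.0128).

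To compare levels between genes, CPM were divided by the kilobases of exon that GENCODE annotates in GRCh37, although reads were counted on UCSC knownGene genes. On this scale *YAP1* had 29.5 ± 0.435 CPM per kb (SD, n = 2 libraries, as for all values here) in MCF10A with pLOC-empty and *WWTR1* 5.37 ± 0.228. With pLOC-*MALINC1*, they had 33.3 ± 0.800 and 10.1 ± 0.213. In DCIS.COM the order was reversed, with 21.4 ± 0.621 for *YAP1* and 33.3 ± 0.465 for *WWTR1* with pLOC-empty, and 16.7 ± 0.0831 and 42.2 ± 1.76 with pLOC-*MALINC1*. *WWTR1* thus made up 15.4% ± 0.363 of the summed level of both coactivators in MCF10A with pLOC-empty and 23.3% ± 0.0523 with pLOC-*MALINC1*. In DCIS.COM its share was 60.9% ± 0.361 with pLOC-empty and 71.7% ± 0.946 with pLOC-*MALINC1*. The share was higher in each library with *MALINC1* than in each library of the same line without it. The sum itself was 34.8 ± 0.663 and 43.4 ± 1.01 CPM per kb for MCF10A and 54.7 ± 1.09 and 58.9 ± 1.67 for DCIS.COM, with pLOC-empty and pLOC-*MALINC1* respectively. No test was run on these shares, which also depend on the exon lengths taken from the annotation.

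**Figure D3:**
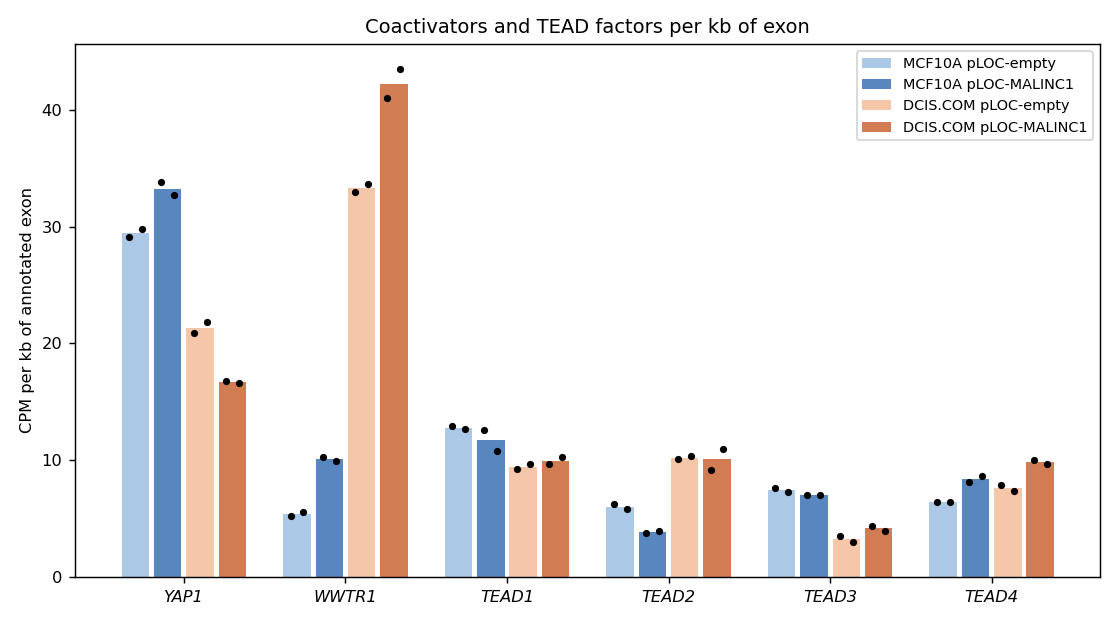
CPM per kb of annotated exon (vertical axis) of both coactivators and of the 4 TEAD factors in the 4 groups, with a bar for the mean and a point for each of the 2 libraries. *YAP1* stands above *WWTR1* in MCF10A and below it in DCIS.COM, while the TEAD factors stay at 12.8 CPM per kb or less in every group mean.

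The summed level of *TEAD1*, *TEAD2*, *TEAD3* and *TEAD4* had group means from 30.5 ± 0.286 CPM per kb in DCIS.COM with pLOC-empty to 34.0 ± 1.10 in DCIS.COM with pLOC-*MALINC1*. *TEAD1* was the leading factor in MCF10A, with 39.2% ± 0.367 of the sum with pLOC-empty and 37.8% ± 3.08 with pLOC-*MALINC1*. The share of *TEAD4* there went from 19.6% ± 0.443 to 27.2% ± 1.81, and that of *TEAD2* from 18.4% ± 0.619 to 12.3% ± 0.671. In DCIS.COM with pLOC-empty, *TEAD2* had 33.4% ± 0.828, *TEAD1* 30.9% ± 1.19 and *TEAD4* 25.0% ± 1.04. With pLOC-*MALINC1*, *TEAD2* (29.6% ± 2.89), *TEAD1* (29.2% ± 0.245) and *TEAD4* (29.0% ± 1.68) were within their spread of each other. *TEAD3* was the lowest in DCIS.COM, at 10.7% ± 0.979 and 12.2% ± 1.45. Of the exon bases of *TEAD2*, 10.7% overlap the opposite-strand gene *CD37*, whose reads could not be told apart there. The order of the TEAD factors was not tested. Among the other genes, *CCN1* had 6.01 ± 0.396 CPM per kb in MCF10A with pLOC-empty and 2.03 ± 0.0884 in DCIS.COM with pLOC-*MALINC1*, where it stood below *CCN2* at 2.64 ± 0.0186.

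The rest of the pathway was read from 3 lists, of 44 Hippo regulators (43 measured), 5 further TEAD factors and cofactors, and 26 further targets of YAP and TEAD. Like the members, these lists were chosen with earlier results of these data known. Their shares beside all genes are therefore a description and not a test of the pathway. With *MALINC1* in MCF10A, 1 of 43 regulators (2.33%), 0 of 5 factors and cofactors and 9 of 26 targets (34.6%) were DEGs, beside 5.50% of all genes. Of the 5 factors and cofactors, 2 had an unadjusted limma p below 0.05 there, beside 8096 of 13842 genes. In DCIS.COM, 2 of 43 regulators (4.65%), 2 of 5 factors and cofactors (40.0%) and 4 of 26 targets (15.4%) were DEGs, beside 4.53% of all genes. At any fold change, 17 regulators (9 higher, 8 lower), 2 factors (both lower) and 18 targets (10 higher, 8 lower) passed in MCF10A, which is 39.5%, 40.0% and 69.2% of each list beside 39.6% of all genes (21.5% higher, 18.1% lower). In DCIS.COM, 22 regulators (12 higher, 10 lower), 3 factors (all higher) and 18 targets (8 higher, 10 lower) passed, which is 51.2%, 60.0% and 69.2% beside 33.2% of all genes (16.4% higher, 16.7% lower). The median log2 fold changes of regulators, factors and targets were 0.036, -0.092 and -0.029 for MCF10A and -0.025, 0.35 and -0.0071 for DCIS.COM.

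Among the targets in MCF10A, 6 were higher and 3 lower as DEGs, beside 2.99% and 2.51% of all genes. *AXL*, a receptor tyrosine kinase, rose from 2.32 ± 0.771 to 13.2 ± 2.35 CPM (2.50 on the log2 scale, adjusted p = 2.08e-07). *AREG*, an epidermal growth factor receptor ligand, rose from 76.4 ± 1.48 to 307 ± 6.72 CPM (2.01, adjusted p = 1.08e-11), and *THBS1*, the matrix protein thrombospondin-1, from 788 ± 11.5 to 2323 ± 33.8 CPM (1.56, adjusted p = 1.25e-10). *FJX1* (1.39) and the kinase gene *NUAK2* (1.15) rose as well, with adjusted p values of 1.01e-08 and 0.00053. The call of *NUAK2* was lost with a pseudocount of 0.5 CPM (0.98) or 1 CPM (0.85). *ADAMTS1* had at most 1 read in a library with pLOC-empty and at most 8 reads with pLOC-*MALINC1*, at least 1.90-fold higher, and its call was lost with both pseudocounts (adjusted p = 0.0153 and 0.0801). *IGFBP3*, which binds insulin-like growth factors, fell from 302 ± 8.25 to 83.1 ± 6.58 CPM (-1.86, adjusted p = 8.99e-11), and *CCDC80*, a matrix protein, from 351 ± 1.49 to 90.7 ± 6.74 CPM (-1.95, adjusted p = 8.04e-10).

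In DCIS.COM, all 4 DEGs among the targets were lower, where 3.08% of all genes were DEGs that were lower and 1.44% DEGs that were higher. *TGFB2*, a transforming growth factor, fell from 30.4 ± 1.74 to 1.03 ± 0.260 CPM (-4.81 on the log2 scale, adjusted p = 2.11e-10), and *AXL* from 57.0 ± 1.16 to 13.7 ± 0.848 CPM (-2.05, adjusted p = 1.48e-06). *DLC1*, a tumour suppressor gene, fell from 12.3 ± 0.331 to 3.64 ± 0.170 CPM (-1.74, adjusted p = 8.89e-08), and *F3*, tissue factor, from 39.9 ± 1.15 to 19.5 ± 0.503 CPM (-1.03, adjusted p = 1.49e-09). The value of *F3* was -0.9966 without pLOC-empty replicate 1, -0.9997 without pLOC-*MALINC1* replicate 2, -0.99 with a pseudocount of 1 CPM and -0.91 with total counts, which ended its 2-fold call. *THBS1* fell by 0.98 (adjusted p = 7.25e-09), and passed 2-fold without pLOC-empty replicate 2 (-1.04), without pLOC-*MALINC1* replicate 2 (-1.02) and with quantile normalization (-1.08). The response of *AXL* differed between the lines by -4.55 (adjusted p = 2.09e-08) and that of *THBS1* by -2.54 (adjusted p = 6.03e-11). By the same test, the responses of 14 of 26 targets (53.8%) differed by over 2-fold, 4 higher and 10 lower in DCIS.COM, beside 9.20% of all genes. Those of 4 of 43 regulators (9.30%) and 2 of 5 factors (40.0%) also differed so. The choice of the lists limits these shares as well.

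**Figure D4:**
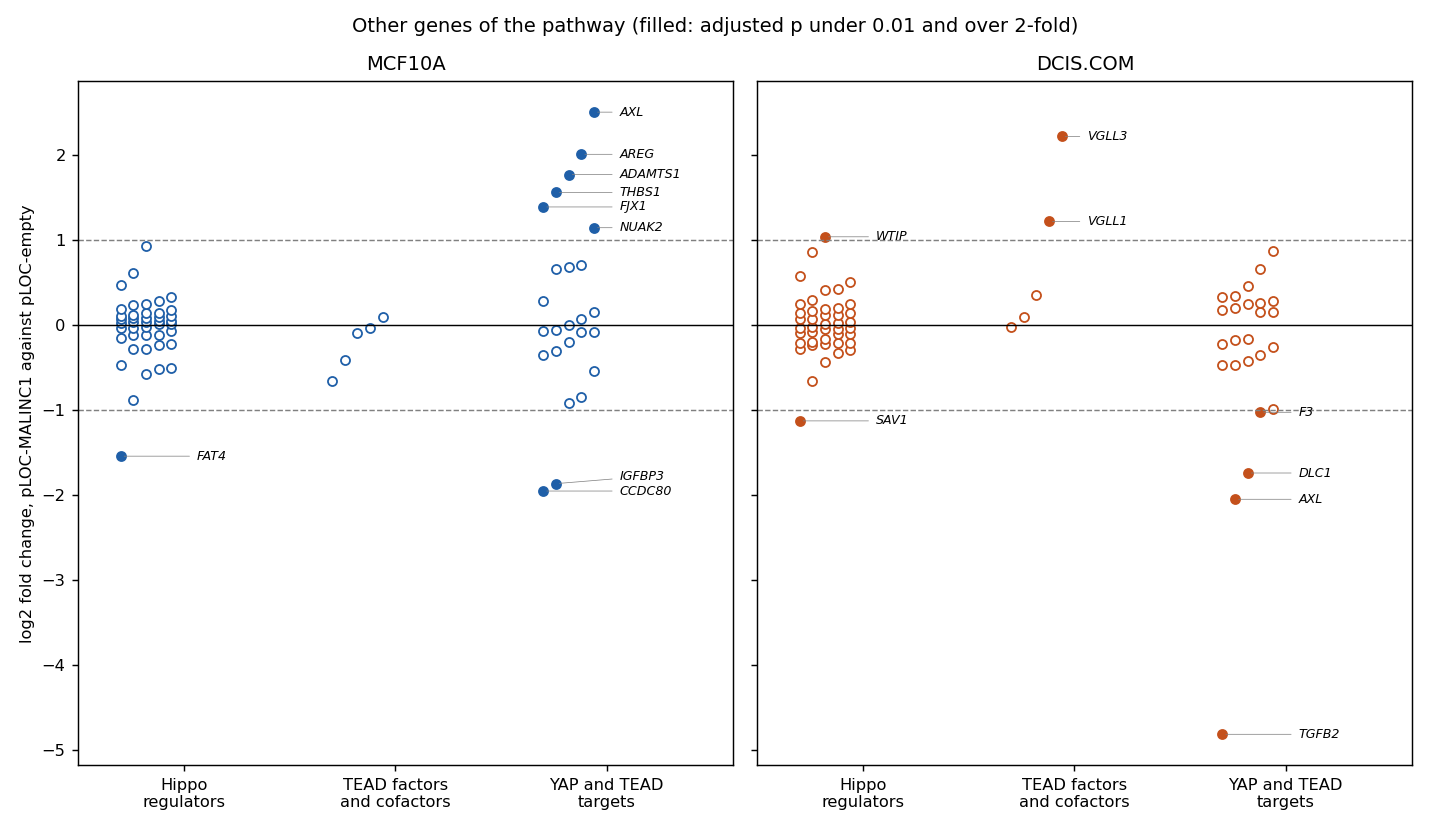
Log2 fold change of pLOC-*MALINC1* against pLOC-empty (vertical axis) for the genes of the 3 lists (horizontal axis) in MCF10A and DCIS.COM, with dashed lines at a 2-fold change and DEGs filled and named. Each point is 1 gene over 2 libraries a group, and *AXL* appears at 2.50 in MCF10A and at -2.05 in DCIS.COM.

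Among regulators and cofactors, *FAT4*, a large protocadherin, fell in MCF10A from 12.4 ± 0.185 to 4.20 ± 0.0564 CPM (-1.54 on the log2 scale, adjusted p = 3.65e-06). In DCIS.COM *SAV1*, the scaffold of the upstream kinases, fell from 75.3 ± 1.01 to 34.5 ± 2.10 CPM (-1.13, adjusted p = 7.15e-09). *WTIP*, a LIM domain protein that binds LATS kinases, rose from 4.38 ± 0.395 to 9.06 ± 0.404 CPM (1.04, adjusted p = 8.26e-05), but was under 2-fold without pLOC-empty replicate 2 (0.95), without pLOC-*MALINC1* replicate 1 (0.99) and with a pseudocount of 0.5 CPM (0.97). *VGLL3*, a cofactor that binds TEAD in place of YAP, rose from 5.62 ± 0.0925 to 26.5 ± 2.66 CPM (2.22, adjusted p = 3.64e-10). *VGLL1*, of the same family, rose from 8 and 12 reads to 39 and 41 reads a library (1.22, adjusted p = 8.48e-05), with 0.98 without pLOC-empty replicate 2 and 0.79 with a pseudocount of 0.5 CPM. With that line fitted alone, the adjusted p of *VGLL1* was 0.0116.

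Between the lines with pLOC-empty, 10 of 43 regulators (23.3%), 3 of 5 factors and cofactors (60.0%) and 14 of 26 targets (53.8%) were DEGs, beside 28.6% of all genes. *AMOT*, the founding angiomotin, had 5 and 0 reads in the MCF10A libraries and 289 and 294 reads in those of DCIS.COM (log2 difference 6.71, adjusted p = 8.22e-09, a value that depends on the prior count). *STK3*, an upstream kinase (-2.22), *RASSF1* (-2.19) and *FAT4* (-1.59) were lower in DCIS.COM, and *SAV1* (1.55) was higher, with adjusted p values of 1.25e-12, 2.14e-11, 5.42e-07 and 2.60e-11. *VGLL1* (-4.89), *VGLL3* (-4.87) and *TEAD3* (-1.19) were lower, with adjusted p values of 2.77e-11, 2.43e-14 and 4.65e-08. Of the targets, *FOXF2* had no reads in MCF10A and was at least 75.1-fold higher in DCIS.COM, and *ADAMTS1* was at least 37.1-fold higher. *CCDC80* (-6.22) and *F3* (-4.65) were lower, with adjusted p values of 2.51e-15 and 1.23e-16. The targets therefore differed between the lines in both directions, with 8 higher and 6 lower as DEGs.

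The genes whose log2 CPM over the 8 libraries was most like that of a member were named from 11498 genes with at least 5 CPM in a group mean, as a description without a test. For *CCN1* these were *KRT81* (Pearson r = 0.997), *ASS1* (0.997) and *KCTD20* (0.996). *TDRKH* (0.993), *ABHD8* (0.993) and *PHC1* (0.992) were closest to *CCN2*, and *PLEKHA6* (0.995), *NPEPPS* (0.994) and *GAS2L3* (0.990) to *LATS2*. The 8 points fall into 4 groups of 2 libraries, so that each correlation follows mainly the 4 group means.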

How the data were processed

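RNA-seq was performed by the authors on 8 libraries (76 nt paired-end, ScriptSeq v2 kit). The authors used Rsubread to map reads to hg19 and featureCounts to count them on UCSC knownGene genes. The deposited values are log2 CPM, which the authors normalised with edgeR, and the values show a prior count of 2 in proportion to library size. Tool versions, strand setting and low-expression filter are not given in the sources used here. CPM printed here had the prior removed, and 100% of values gave whole reads within 0.02 read. The filter, 0.5 CPM in 2 libraries, left all 13842 genes, and 346 of them had no symbol. Libraries held 20604377 to 37550457 reads on genes, scaling factors were 0.945 to 1.11, and replicates had Pearson correlations of 0.996 to 0.997. Their chi-square per degree of freedom was 20.4 in DCIS.COM with pLOC-*MALINC1* and 3.27 to 6.27 in the other groups. The fit shared its estimate of the spread over all groups.

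The fit used limma 3.58.1 under R 4.3.3 on the log2 CPM (lmFit, eBayes with trend, 4 group means over 8 libraries, Benjamini-Hochberg adjustment over all genes; 4 residual and 7.98 prior degrees of freedom). A group with 3 reads or fewer in each library was taken as at the floor, per library, and a fold against it is a bound. The limma fit, and not the recovery of reads or the floor rule, was tested on simulated data, with changes larger than most of those reported here. Members and lists were chosen with earlier results of these data known. The text names all members, list genes that were DEGs within a line, the 5 largest DEGs between lines in each list, and the 3 genes most like *CCN1*, *CCN2* and *LATS2*. A target that the rule names is in the counts but is not reported or plotted here. Alternatives changed the pseudocount, filter, scaling, model, thresholds and pairing, and left out each library in turn. Other steps ran in Python 3.11.15 (pandas 2.3.3, numpy 2.4.6) and plots in matplotlib 3.10.9.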

Additional observations from a re-analysis of the deposited data

Results flagged for a closer look

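The responses to *MALINC1* differed between the lines for 5 measured genes in the interaction test (limma, all adjusted p below 0.01), beside 35.9% of all genes (15.6% higher, 20.3% lower in DCIS.COM). The DCIS.COM response minus the MCF10A response was -0.53 for *YAP1*, -0.57 for *WWTR1*, 0.42 for *AMOTL1*, -0.39 for *AMOTL2* and -1.03 for *CCN1* on the log2 scale. Under total-count scaling the median of all genes moved by 0.128 in this contrast, and these 5 differences kept their sign. The lines also differ in culture medium, so that line and medium cannot be told apart in these differences.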

How the results depend on the processing

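No value of a member that passed the test changed its sign under any alternative that was run. Signs changed only for values close to 0 that did not pass, those of *AMOTL1* and *CCN1* in MCF10A and the differences between the lines for *TEAD4*, *LATS2* and *CCN2*. Of 702 values of members, 666 kept their side of the threshold, 17 passed it and 19 fell short. Some of the 702 could hardly move, so that their number overstates how far the results were tried. The filter had removed no gene, so that dropping it changed nothing. Leaving out a library of 1 line alters a response within the other line only through the shared estimate of the spread. Counts of DEGs among the members were 0 (MCF10A), 1 (DCIS.COM), 1 (difference between lines) and 2 (lines with pLOC-empty), and became 4, 6, 5 and 8 at any fold change. The single DEG of DCIS.COM and of the difference, *CCN1*, was lost (0 DEGs) with log2(CPM + 0.5), with log2(CPM + 1) and with total-count scaling, an alternative chosen after seeing the data, as was voom. When single libraries were left out, the DEGs numbered 0, 0 to 1, 0 to 1 and 2, and members at any fold change 2 to 4, 5 to 7, 5 to 6 and 7 to 8. With each line fitted alone, 1 member passed in MCF10A in place of 4, with fewer residual degrees of freedom. DEGs in the 3 lists numbered 10, 8, 20 and 27, became 37, 43, 47 and 66 at any fold change, 5 in DCIS.COM with log2(CPM + 1), and 10 to 11, 7 to 8, 19 to 22 and 25 to 28 with a library left out. Where a library was left out, its lone partner was assumed to vary like the other groups. The edgeR and DESeq2 alternatives were not run, because the deposited values are log2 CPM; voom on recovered reads took their place.

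No shared effect of the replicate number was detected, since deviations of same-numbered libraries correlated between -0.067 and 0.038. Whether same-numbered libraries were prepared together is not given by the labels. With the replicate number as a block, the DEGs among the members numbered 0, 1, 1 and 2, the members at any fold change 4, 6, 5 and 8, and the DEGs in the lists 10, 8, 21 and 27. Depth limits *CCN2* most, at 96 to 211 reads a library.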
